A study of Homo sapiens with 8 samples.

Results

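The genes described here are 44 components of the DNA replication machinery, chosen as a list of gene symbols and found on the arrays through the transcript accession of each probe. All 44 were matched, and 43 had a value on all 8 arrays, of 19046 genes with values. The list holds the MCM2-7 helicase, the factors that load and activate it, the origin recognition complex (ORC), the sliding clamp and its loader, primase and the replicative polymerases, replication protein A (RPA), flap-processing nucleases and 4 enzymes of nucleotide synthesis. RNA came from A549 cells, an established line derived from a human lung carcinoma. In the EEDS series the cells received the vehicle or 1.25, 5 or 20 μg/mL of EEDS, an ethanol extract of the seeds of Descurainia sophia. In the helveticoside series they received the vehicle or 3.75, 15 or 60 nM of helveticoside, a cardiac glycoside. These doses are called the low, middle and top steps below. Each condition was 1 one-colour Agilent array of RNA pooled from 3 cultures, so no spread between cultures can be seen. The sample labels give an exposure of 48 h for every sample, and the study's methods give a shorter one for the arrays.

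DNA replication starts in G1 phase, when ORC marks origins and, with CDC6 and CDT1, loads the MCM2-7 rings. In S phase CDC45, the GINS complex and MCM10 turn these rings into active helicases. Primase and DNA polymerase alpha then lay down primers, the RFC loader places the PCNA clamp, and DNA polymerases delta and epsilon extend the strands. Many of these genes are transcribed mainly as cells pass from G1 into S phase, under the control of E2F factors and the retinoblastoma (RB) proteins that hold them in check. Cardiac glycosides are known as inhibitors of the sodium pump.

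All 43 members with values were well above background on all 8 arrays, which held for 11493 of the 19046 genes. Median probe signals were 182 to 278 over a local background of 27 to 34, 54.5% to 64.9% of probes were well above background, and no spot was saturated. The keratins and aldo-keto reductases by which A549 cells are known were bright, with log2 signals in the vehicle controls of 18.5 and 18.3 for KRT7 and 18.3 and 18.4 for AKR1B10. Of 11 measured markers of leukocytes, endothelial cells and fibroblasts, only 4 were well above background on all arrays. CD68, a lysosomal protein of macrophages and other cells, rose by 1.31 on the log2 scale at the middle and 0.92 at the top step (limma, adjusted p = 0.0135 and 0.00559), and no other marker of these cell types was called against the control. COL3A1, a fibroblast collagen, was well above background on the helveticoside middle-dose array alone, with a log2 signal of 6.58. The summed linear signal of the 11 markers was 951 and 860 in the vehicle controls and 1136 to 1474 on the treated arrays, and its part in the values below was not tested. Of 11 genes typical of A549 cells, 6 were called lower and 2 higher at the middle step, beside 11.4% and 10.7% of all genes. At the top step 7 were lower and 3 higher, beside 19.8% and 18.4% of all genes. Among genes well above background on all arrays the shares were 15.9% and 16.2% at the middle step and 27.7% and 26.8% at the top. The log2 ratio between the helveticoside and EEDS vehicle controls had a median of -0.16 and an SD of 0.33 over the 43 members. No member was over 2-fold apart, beside 10.4% of all genes and 544 of the 11493 that were as bright everywhere. The spot positions recorded by the scanner ordered the 4 arrays of each series by dose step, from the control at the highest X coordinate to the top dose at the lowest. Dose step and place on the slide therefore cannot be told apart. Agent and series cannot be told apart either, and the arrays measured whole cultures, in which fewer cells in S phase and less RNA per cell cannot be told apart.

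The replication genes lay mostly below the vehicle control on every treated array. The median log2 ratio of the 43 members was -0.53, -0.72 and -0.59 at 1.25, 5 and 20 μg/mL EEDS, and -0.23, -0.62 and -0.32 at 3.75, 15 and 60 nM helveticoside. Over all genes the corresponding medians ranged from -0.04 to 0.02. In both series the members' median was thus lowest at the middle dose. At the middle dose 37 of the 43 members lay below the control in the EEDS series and 38 in the helveticoside series, and 37 did so in both. At the top dose 31 lay below in both series, 8 above in both, and 4 on opposite sides. Members more than 2-fold below the control numbered 7, 8 and 10 from the low to the top dose of EEDS and 1, 10 and 8 for helveticoside. The share of all genes past that fold was 3.66%, 8.47% and 14.5% for EEDS and 4.31%, 8.06% and 12.8% for helveticoside. ORC6 was the only member more than 2-fold above a control, at the top dose of each agent, while 4.22%, 7.33% and 13.3% of all genes were at the EEDS doses and 3.38%, 7.08% and 10.8% at the helveticoside doses.

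**Figure D1:**
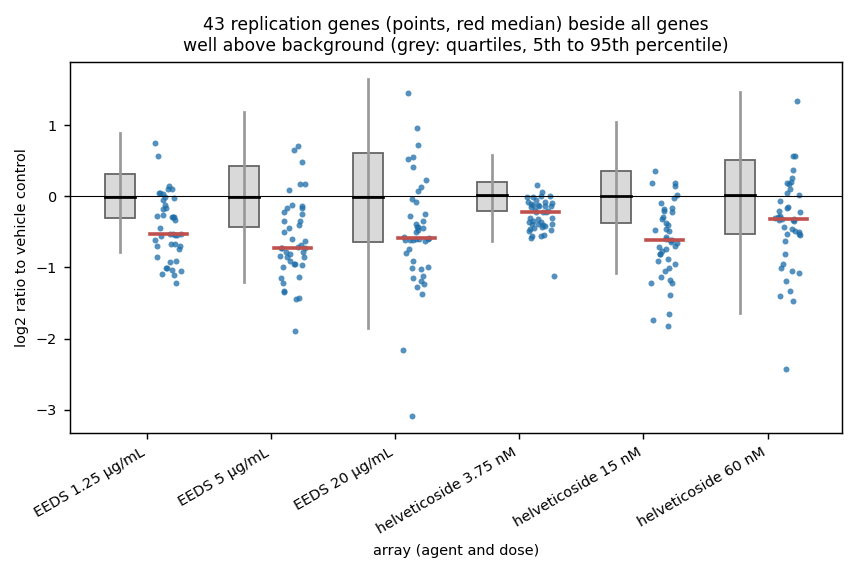
Log2 ratio to the vehicle control of the same series on the 6 treated arrays (vertical axis), for the 43 replication genes (blue points, red line at their median) and for the 11493 genes well above background on every array (grey box for the quartiles, line from the 5th to the 95th percentile, black line at the median). The members' medians run from -0.72 to -0.23, while the black lines lie close to 0 on every array.

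With 1 array per dose, a change at a dose step was tested over both series together, with the series as a block and the disagreement between the agents at a step as the error (limma, 3 residual degrees of freedom). At the middle step 25 of 43 members, 58.1%, fell and none rose at an adjusted p under 0.05, and the members' median change was -0.68. Across all genes 11.4% fell and 10.7% rose at that step, with a median of -0.01, and of the 11493 bright genes, those well above background everywhere, 15.9% fell and 16.2% rose. At the top step 20 members, 46.5%, fell and 4 rose, beside 19.8% and 18.4% of all genes and 27.7% and 26.8% of the bright genes. The members' median at the top step was -0.46 and that of all genes 0.01. Between the middle and the top step 6 members rose and none fell, where 4.65% of all genes rose and 5.36% fell. No member was called at the low step, where limma called 2 genes in all, 0.0105%, both higher. There 20 members had an unadjusted p under 0.05, 46.5% beside 19.1% of all genes and 27.2% of the bright genes, and the members' median change was -0.33.

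The middle-step calls need all 4 of the arrays they compare. Without either vehicle control or either middle-dose array, no member was called at the middle step, and at most 0.0525% of all genes were called lower. Without any single one of the other 4 arrays, 19 or 20 members were still called lower. The 6 rises from the middle to the top step were lost whichever of the 8 arrays was left out, and 9 to 21 members were called lower at the top step, fewest without the EEDS vehicle control. When the arrays were brought to a common 75th percentile in place of a common distribution, the median of all genes moved to -0.36 and -0.18 at the top doses of EEDS and helveticoside, and the members' medians, -0.42 and -0.19, were then close to it. At the middle doses under that scaling the members' medians were -0.60 and -0.53 beside -0.21 and -0.12 for all genes. The bright genes had medians of -0.04 to 0.08 over the 6 treated arrays under the same scaling. The 4 members that rose at the top step stayed above the control there under every setting run, with lowest values of 0.37 for MCM7, 0.52 for ORC4, 1.22 for ORC6 and 0.47 for POLE. MCM7, ORC4 and POLE lost their call under at least 1 setting, with highest adjusted p-values of 0.0599, 0.12 and 0.0575, and for ORC6 the highest was 0.0279.

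**Figure D2:**
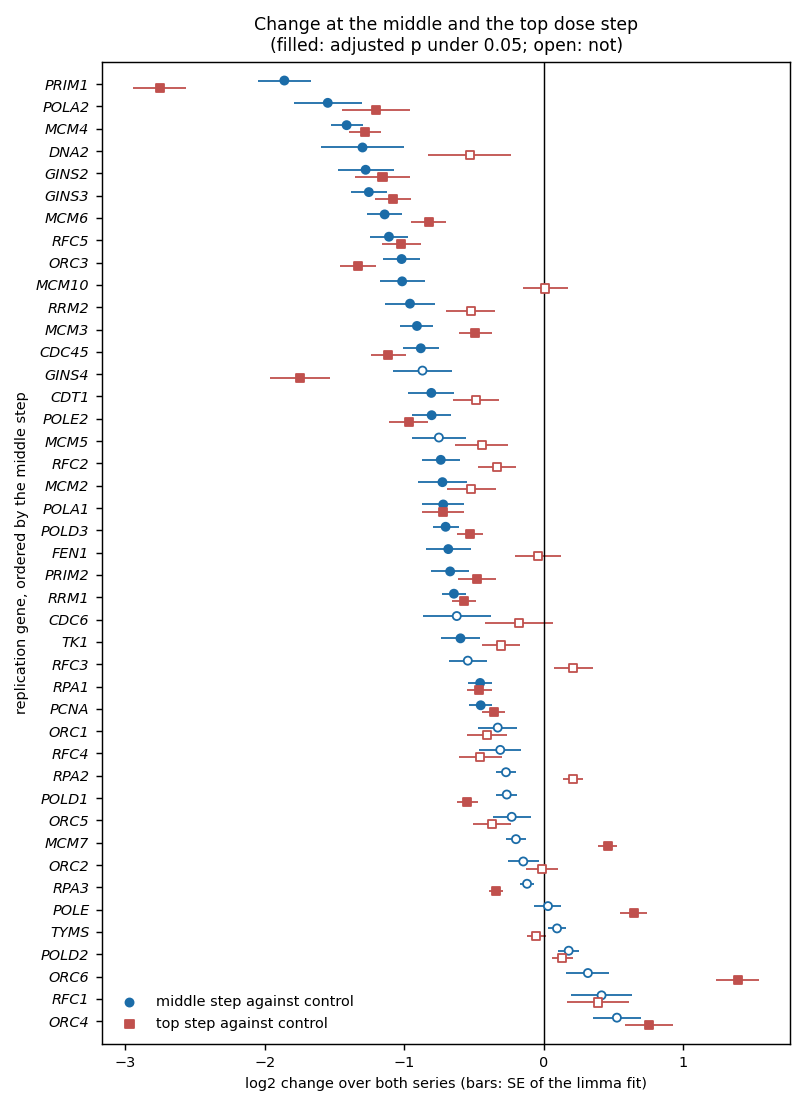
Log2 change over both series at the middle step (blue circles) and at the top step (red squares) for the 43 replication genes, ordered by the middle step, with bars for the standard error of the limma fit and filled symbols where the adjusted p is under 0.05. Most circles lie left of 0, PRIM1 is the lowest at both steps, and the filled squares right of 0 are MCM7, POLE, ORC6 and ORC4.

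A fit of a straight line over the dose steps of each series called fewer members. In the EEDS series ORC3, CDC45, GINS4 and PRIM1 fell and ORC4 rose, 4 and 1 of 43, or 9.30% and 2.33%. The shares were 7.85% and 7.27% of all genes and 10.7% and 10.2% of the bright genes. In the helveticoside series ORC3, CDC45 and PRIM1 fell, 3 of 43 or 6.98%, beside 5.80% of all genes and 7.62% of the bright genes. None rose, beside 5.48% and 7.58%. The slopes of the members differed between the agents by -0.19 to 0.24 log2 units per step, helveticoside minus EEDS, with a median standard error of 0.15. None of these differences was called, and the smallest unadjusted p was 0.144 (limma). In the whole table no difference was called, and 525 genes, 2.76%, had an unadjusted p under 0.05. That is a smaller share than this threshold would pass with no difference anywhere. A difference in slope of the size of the median standard error could have gone undetected in most members, and the power to find one was not tested.

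In 16 of the 43 members, 37.2%, the middle dose was the lowest of the 4 arrays in both series, beside 6.80% of all genes and 6.66% of the bright genes. The EEDS series alone gave 18 such members beside 13.6% of all genes, and the helveticoside series 28 beside 26.4%. The 16 were MCM3, MCM4, MCM6, MCM7, MCM10, CDT1, GINS2, GINS3, RFC3, POLA2, PRIM2, POLD3, FEN1, DNA2, RRM2 and TK1. For MCM7 the margin in the EEDS series was 0.00099 log2 units, which is no difference at this precision. The next smallest margins in that series were 0.07 for MCM4, 0.09 for RFC3 and 0.11 for GINS2 and PRIM2. The log2 ratio between the vehicle controls had an SD of 0.33 over the members. A second MCM7 probe and 1 further PRIM2 probe were lower at the low than at the middle dose of EEDS. With helveticoside this MCM7 probe read -0.17 at the low and -0.10 at the middle dose, so it was lowest at the middle dose in neither series. Of the 16, only MCM7, MCM10 and RFC3 were called higher at the top than at the middle step (limma). By contrast 7 members, 16.3%, were lowest at the top dose in both series, where 22.2% of all genes and 29.3% of the bright genes were. Both groups can be followed gene by gene in the heat map of log2 ratios.

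**Figure D3:**
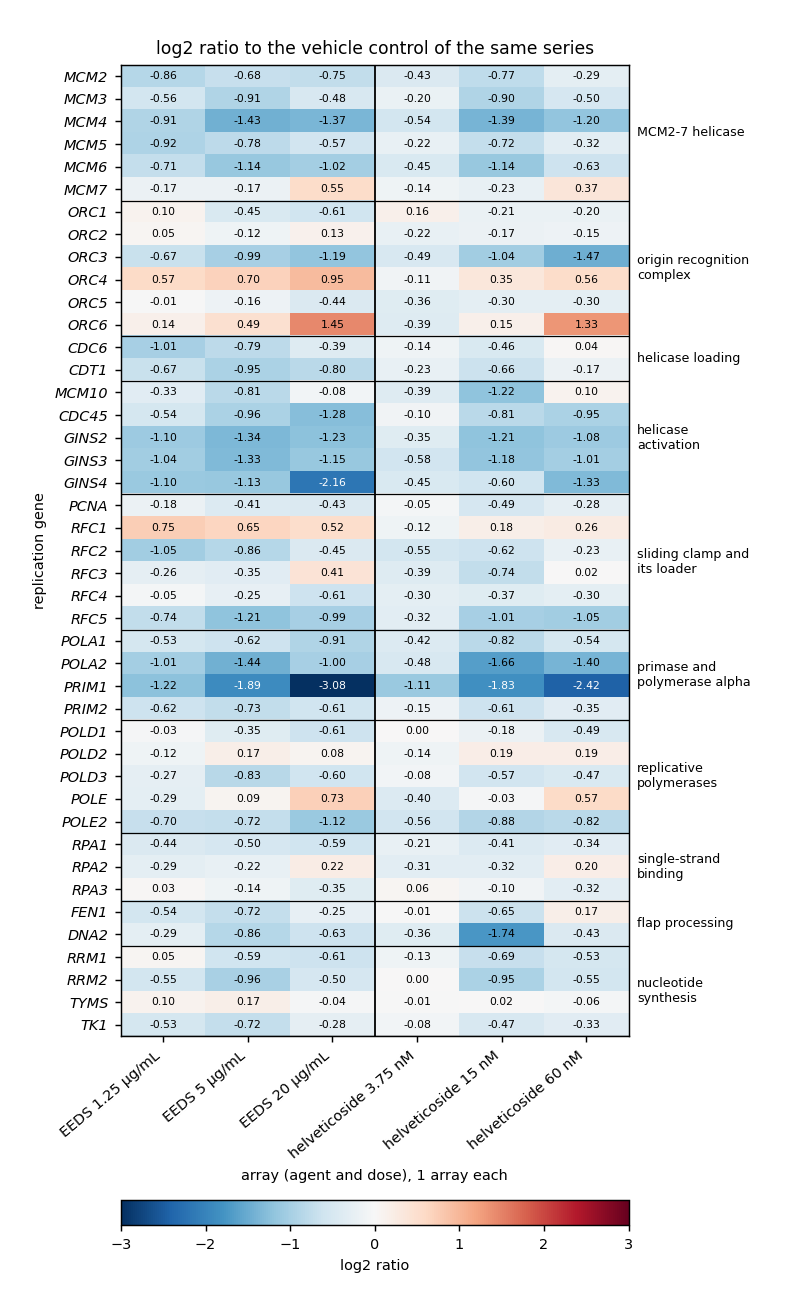
Log2 ratio to the vehicle control of the same series for each of the 43 replication genes (rows, grouped by complex) on the 6 treated arrays (columns, 1 array each), blue below and red above the control, with the value printed in each cell. Blue fills most cells of the middle-dose columns, PRIM1 at the top doses is the darkest blue (-3.08 and -2.42), and ORC6 at the top doses is the strongest red (1.45 and 1.33).

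Promoter sequences were set beside these values because 25 members fell at the middle step and the members then differed in direction at the top. RefSeq promoters of GRCh38.p14, from 250 bases before to 50 after the start site, were matched for 37 of the 44 members. Each was searched on both strands for the words TTTCCCGC, TTTGGCGC, TTTCGCGC and TTTGCCGC, which stand here for E2F sites. At least 1 of them was present in 17 of the 37 promoters, 45.9%, beside 3.99% of the 27305 genes with a promoter and 5.40% of the protein-coding ones. Of the members with a matched promoter, they were present in 9 of 16 that fell at the top step, in 2 of 4 that rose and in 5 of the other 16 with a fit value. The words thus stand in promoters of members of either direction. A CCAAT word was present in 23 of the 37, 62.2% beside 39.7% of all genes and 42.1% of the protein-coding ones, and GGGCGG, the core of the SP1 box, in 27, 73.0% beside 48.3% and 64.3%. The CHR words TTTGAA and TTCGAA, which mark genes of later cell-cycle phases, were present in 2, 5.41% beside 19.5% and 17.5%. None of these words contains another.

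Shown are the 2 members with the lowest and the 2 with the highest top-step change among those holding an E2F word, followed by the lowest and the highest among the rest. Each promoter is written 5′ to 3′ on its gene's strand, and the capitals mark the E2F words on either strand.
ORC3 (chr6:87589885-87590184, plus strand): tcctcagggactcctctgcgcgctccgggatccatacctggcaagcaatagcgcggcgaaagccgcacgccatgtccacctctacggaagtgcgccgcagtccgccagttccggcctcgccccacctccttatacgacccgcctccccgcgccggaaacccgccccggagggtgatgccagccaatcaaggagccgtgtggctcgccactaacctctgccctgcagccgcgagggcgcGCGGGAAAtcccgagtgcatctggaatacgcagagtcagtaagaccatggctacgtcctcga
POLA2 (chr11:65261712-65262011, plus strand): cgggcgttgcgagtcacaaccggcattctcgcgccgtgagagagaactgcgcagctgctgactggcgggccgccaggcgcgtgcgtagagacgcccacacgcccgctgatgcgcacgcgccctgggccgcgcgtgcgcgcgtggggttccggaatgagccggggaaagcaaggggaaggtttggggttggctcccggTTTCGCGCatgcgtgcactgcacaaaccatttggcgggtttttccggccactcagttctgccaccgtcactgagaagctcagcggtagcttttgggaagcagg
POLE (chr12:132687293-132687592, minus strand): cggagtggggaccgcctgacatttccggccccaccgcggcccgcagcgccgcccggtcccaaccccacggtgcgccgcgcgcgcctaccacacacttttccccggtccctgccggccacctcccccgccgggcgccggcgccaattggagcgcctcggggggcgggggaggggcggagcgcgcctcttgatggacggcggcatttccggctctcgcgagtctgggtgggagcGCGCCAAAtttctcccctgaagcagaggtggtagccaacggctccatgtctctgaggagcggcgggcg
MCM7 (chr7:100101348-100101647, minus strand): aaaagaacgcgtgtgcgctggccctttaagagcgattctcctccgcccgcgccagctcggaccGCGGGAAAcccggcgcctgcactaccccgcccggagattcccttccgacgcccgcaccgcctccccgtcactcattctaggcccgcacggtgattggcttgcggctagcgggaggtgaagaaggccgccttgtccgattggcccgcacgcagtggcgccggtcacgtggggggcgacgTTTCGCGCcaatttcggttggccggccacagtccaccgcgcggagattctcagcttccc
PRIM1 (chr12:56752274-56752573, minus strand): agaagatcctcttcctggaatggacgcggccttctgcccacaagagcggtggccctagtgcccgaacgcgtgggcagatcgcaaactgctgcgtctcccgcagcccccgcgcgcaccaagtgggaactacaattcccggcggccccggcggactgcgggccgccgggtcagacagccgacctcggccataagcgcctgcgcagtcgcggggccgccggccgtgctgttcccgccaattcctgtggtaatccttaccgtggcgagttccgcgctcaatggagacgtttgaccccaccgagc
ORC6 (chr16:46689409-46689708, plus strand): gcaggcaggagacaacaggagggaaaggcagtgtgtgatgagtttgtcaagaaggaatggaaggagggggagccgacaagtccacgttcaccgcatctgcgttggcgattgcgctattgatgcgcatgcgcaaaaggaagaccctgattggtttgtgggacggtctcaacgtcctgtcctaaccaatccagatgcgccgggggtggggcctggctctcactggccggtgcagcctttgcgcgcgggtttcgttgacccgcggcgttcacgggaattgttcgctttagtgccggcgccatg
ORC3 and POLA2 fell at the top step, POLE and MCM7 rose, and all of them hold a word in capitals. PRIM1, the member that fell most, and ORC6, the member that rose most, hold none in this window.

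The 2 primase genes and the 2 genes of DNA polymerase alpha were the group in which every member fell at both steps. PRIM1 (chr12:56731580-56752323 in GRCh38.p14), the catalytic primase subunit that makes the RNA primers, had log2 signals of 10.91, 9.69, 9.02 and 7.83 from the control to the top dose of EEDS. In the helveticoside series it had 11.21, 10.10, 9.38 and 8.79. The signal was lower at every step in both series, and all 6 treated arrays lay below both controls. Its change was -1.86 ± 0.19 (SE) at the middle and -2.75 ± 0.19 at the top step, 6.74 times lower than the control at the top (limma, adjusted p = 0.0135 and 0.00192). Its slopes were -0.99 per step for EEDS and -0.80 for helveticoside, the steepest among the members, with adjusted p = 0.0129 and 0.0165.

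POLA2, the regulatory subunit of polymerase alpha, had a different course from PRIM1. Its log2 signals were 9.83, 8.81, 8.39 and 8.83 in the EEDS series and 8.97, 8.49, 7.32 and 7.57 in the helveticoside series. Both series were lowest at the middle dose, and the change there was -1.55 ± 0.25 (adjusted p = 0.0208). At the top step it was -1.20 ± 0.25 (adjusted p = 0.0197), and the difference between the steps was not called. POLA1, the catalytic subunit, changed by -0.72 at either step, and PRIM2, the large primase subunit, by -0.67 and -0.48. The PRIM2 call at the top step was close to the threshold (adjusted p = 0.0493), and of its 2 other probes 1 read 0.19 and the other -0.16 at that step.

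Of the 5 measured genes of helicase activation, 4 fell at the middle step and 4 at the top. GINS2 and GINS3, subunits of the 4-part GINS complex that joins the MCM ring at the active fork, lay 2.42 and 2.38 times below the control at the middle step and 2.23 and 2.11 times below at the top. GINS2 had log2 signals of 12.11, 11.01, 10.77 and 10.88 in the EEDS series and 12.13, 11.78, 10.92 and 11.05 in the helveticoside series. The low dose of EEDS already lay more than 2-fold below the control, and the low dose of helveticoside did not. GINS4 went further at the top dose, from 12.60, 11.50 and 11.47 to 10.44 with EEDS and from 12.73, 12.29 and 12.13 to 11.40 with helveticoside. It fell by 1.75 on the log2 scale at the top step (SE 0.21, adjusted p = 0.00505), while its change of -0.87 at the middle step had an adjusted p of 0.0516. CDC45, which completes the active helicase with GINS, fell at both steps, by 0.88 and 1.11, and its slopes were -0.43 for EEDS and -0.36 for helveticoside (adjusted p = 0.0197 and 0.0324).

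GINS1, the fourth subunit, had no fitted value, because the scanner software called its only spot an outlier on the EEDS middle-dose array. On the other arrays its log2 ratio was -0.28 and -0.30 at the low and top dose of EEDS and -0.14, -0.40 and -0.07 at the 3 doses of helveticoside. These ratios were smaller in size than those of the other GINS genes at the same doses.

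MCM10, a scaffold that is needed to start unwinding, followed a course of its own in this group. Its log2 signals were 9.00, 8.67, 8.19 and 8.92 with EEDS and 8.82, 8.43, 7.61 and 8.92 with helveticoside. The top dose was level with the control in both series, and the middle dose was the lowest array in both. It fell by 1.01 at the middle step (SE 0.16, adjusted p = 0.0209) and rose by 1.03 between the middle and the top step (adjusted p = 0.0347), for a net change of 0.01 at the top.

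**Figure D4:**
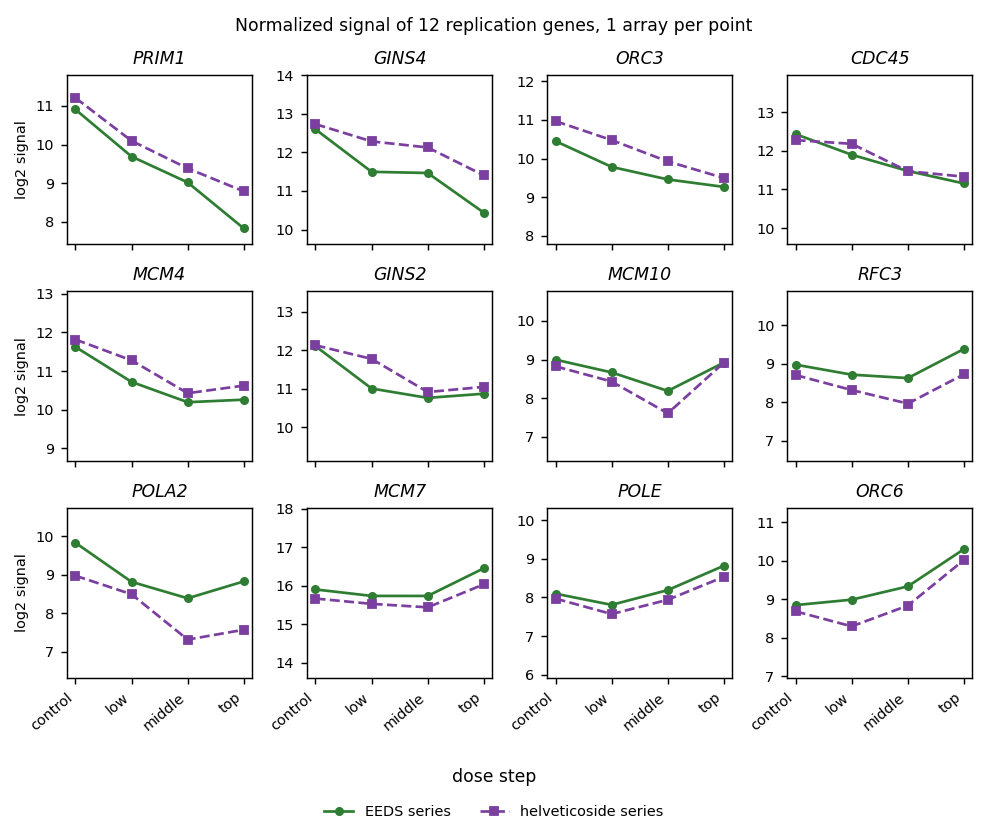
Log2 normalized signal (vertical axes, all spanning the same range) of 12 replication genes at the 4 dose steps of the EEDS series (green circles, solid) and the helveticoside series (purple squares, dashed), 1 array per point. PRIM1, GINS4, ORC3 and CDC45 go down towards the top dose, MCM4, GINS2, MCM10, RFC3 and POLA2 are lowest at the middle dose, and POLE and ORC6 are highest at the top dose along with MCM7.

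The 6 subunits of the MCM2-7 helicase, the ring that unwinds the parental strands, did not move as a unit. At the middle step all 6 lay below the control, and MCM2, MCM3, MCM4 and MCM6 were called lower. MCM4 was the lowest of them, with log2 signals of 11.63, 10.72, 10.19 and 10.26 in the EEDS series and 11.82, 11.28, 10.43 and 10.62 in the helveticoside series. Its change was -1.41 ± 0.12 at the middle and -1.28 ± 0.12 at the top step (adjusted p = 0.0135 and 0.00268). MCM6, with changes of -1.14 and -0.82, and MCM3, with -0.91 and -0.49, were also called at both steps, and each was closer to the control at the top than at the middle. MCM5 changed by -0.75 at the middle step with an adjusted p of 0.0552.

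MCM7 went the other way at the top. It had log2 signals of 15.91, 15.74, 15.74 and 16.46 with EEDS and 15.67, 15.53, 15.44 and 16.04 with helveticoside. The 3 lower steps differed little and the top dose was the highest array of each series. It rose by 0.46 ± 0.07 against the control (adjusted p = 0.00855) and by 0.66 against the middle step (adjusted p = 0.0274). A second, dimmer probe of MCM7 read 0.45 at the top step.

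The origin recognition complex held members of both directions. ORC3 fell at both steps, with log2 signals of 10.45, 9.78, 9.46 and 9.26 in the EEDS series and 10.97, 10.48, 9.92 and 9.49 in the helveticoside series. Each step was lower than the one before in both series, and the top-step change was -1.33 ± 0.13 (adjusted p = 0.00307), 2.52 times below the control. Its slopes were -0.39 and -0.50 per step (adjusted p = 0.0207 and 0.0185).

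ORC6 (chr16:46689659-46698394 in GRCh38.p14), the small subunit that is less tightly bound than the others, rose more than any other member. Its log2 signals were 8.85, 8.99, 9.33 and 10.30 with EEDS and 8.69, 8.30, 8.84 and 10.02 with helveticoside. The top dose was more than 1 log2 unit above the control in either series, and the rise came mainly in the last step. It amounted to 1.39 ± 0.15 against the control (2.62-fold, adjusted p = 0.00396) and 1.07 against the middle step (adjusted p = 0.0308). Its probe was printed in 10 spots, whose log2 signals had a median SD of 0.06 within an array.

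ORC4, which carries one of the ATP-binding folds of the complex, rose by 0.76 at the top step (SE 0.17, adjusted p = 0.027). Its ratios were 0.57, 0.70 and 0.95 at the EEDS doses and -0.11, 0.35 and 0.56 at the helveticoside doses, and its second probe read 0.37 at the top step. ORC1, ORC2 and ORC5 were not called at either step. The 2 probes of ORC2 read -0.01 and 0.51 at the top step, so its direction was not settled. Of the loading factors, CDT1 fell by 0.81 at the middle step (limma, adjusted p = 0.0335) and was not called at the top. CDC6 had ratios of -1.01, -0.79 and -0.39 with EEDS and -0.14, -0.46 and 0.04 with helveticoside and was not called at any step.

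The sliding clamp and its loader changed less than the primase group. PCNA, the ring that holds the polymerases on the template, changed by -0.45 ± 0.08 at the middle and -0.36 ± 0.08 at the top step (adjusted p = 0.0269 and 0.0288), and its 2 probes differed by no more than 0.03 in these values. RFC5 was the loader subunit that fell at both steps. Its log2 signals were 13.33, 12.58, 12.11 and 12.33 with EEDS and 12.95, 12.64, 11.95 and 11.90 with helveticoside, and all 6 treated arrays lay below both controls. The changes were -1.11 and -1.02 (adjusted p = 0.0154 and 0.0065). RFC2 was called at the middle step alone, where it fell by 0.74 (adjusted p = 0.0275). At the low step it changed by -0.80 without a call (limma, unadjusted p = 0.00273). Its lowest EEDS array was the low dose, with a ratio of -1.05 beside -0.86 at the middle dose.

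RFC3 had ratios of -0.26, -0.35 and 0.41 with EEDS and -0.39, -0.74 and 0.02 with helveticoside, and it rose by 0.76 between the middle and the top step (adjusted p = 0.0433). Its second probe, designed to another RefSeq transcript, read 0.33 at the helveticoside middle dose, so the dip in that series rests on 1 of the 2 probes. RFC1, the large loader subunit, lay above the control on all 3 EEDS arrays (0.75, 0.65 and 0.52) and near it with helveticoside (-0.12, 0.18 and 0.26), and was not called at any step. RFC4 was not called either.

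Subunits of the same replicative polymerase differed in direction. POLE, the catalytic subunit of polymerase epsilon, had log2 signals of 8.10, 7.81, 8.19 and 8.82 with EEDS and 7.97, 7.57, 7.94 and 8.54 with helveticoside. In both series the low dose was the lowest array and the top dose the highest. It rose by 0.65 ± 0.10 at the top step (adjusted p = 0.00795) and its second probe read 0.63. POLE2, the second subunit of the same enzyme, fell by 0.97 at the top step and by 0.80 at the middle step (adjusted p = 0.00726 and 0.0237).

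In polymerase delta, POLD1, the catalytic subunit, fell by 0.55 at the top step (adjusted p = 0.00649) and POLD3 by 0.53 at the top and 0.70 at the middle step. POLD2 lay at 0.18 and 0.14 and was not called. Among the RPA subunits, which coat single-stranded DNA, RPA1 fell at both steps by 0.46, and RPA3 fell by 0.34 at the top step. A second, dim probe of RPA1 read -2.16 at the top dose of EEDS where the brighter probe read -0.59, so the size of its fall depends on the probe. RPA2 was not called against the control, and rose by 0.48 between the middle and the top step (adjusted p = 0.0301). Its 2 probes read 0.21 and 0.25 at the top step.

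The 2 flap-processing nucleases fell at the middle step and were not called at the top. DNA2, a nuclease and helicase that trims long flaps, had log2 signals of 7.48, 7.18, 6.62 and 6.85 with EEDS and 7.26, 6.89, 5.51 and 6.82 with helveticoside. Its lowest array by far was the helveticoside middle dose, and the middle-step change was -1.30 ± 0.29 (adjusted p = 0.0431). FEN1, the flap endonuclease of Okazaki fragment maturation, changed by -0.68 at the middle step (adjusted p = 0.0479) and by -0.04 at the top.

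Of the nucleotide enzymes, RRM2, the small subunit of ribonucleotide reductase, had log2 signals of 10.70, 10.15, 9.73 and 10.20 with EEDS and 10.28, 10.28, 9.33 and 9.73 with helveticoside. The middle dose was the lowest array in both series, and the change there was -0.96 ± 0.18 (adjusted p = 0.0269). RRM1, the large subunit, fell by 0.64 at the middle and 0.57 at the top step. TK1, thymidine kinase of the salvage pathway, fell by 0.60 at the middle step (adjusted p = 0.0448). TYMS, which makes thymidylate from deoxyuridylate, stayed within -0.06 to 0.17 of the control on all 6 treated arrays and was not called.

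Genes around the machinery were described from 5 further lists of 95 measured genes. The shares to read these lists against are those given above, at the middle step 11.4% of all genes lower and 10.7% higher (15.9% and 16.2% of the bright genes) and at the top step 19.8% and 18.4% (27.7% and 26.8%). Of 26 genes of fork and chromatin assembly, 14 were lower and 1 higher at the middle step and 12 lower and 3 higher at the top. From the middle to the top step 4 of them fell and 4 rose, beside 5.36% and 4.65% of all genes and 7.96% and 7.02% of the bright genes. LIG1, the ligase that joins Okazaki fragments, had log2 signals of 12.66, 12.13, 11.12 and 10.70 with EEDS and 12.60, 12.49, 11.25 and 10.55 with helveticoside. It was lower at each step and fell by 2.01 at the top step (SE 0.14, adjusted p = 0.00193). RNASEH2A, which removes RNA primers, DSCC1, a subunit of an alternative clamp loader, and PCLAF, a PCNA-binding factor, fell by 1.61, 1.57 and 1.45. TOP1, the topoisomerase that relieves torsion ahead of the fork, rose by 2.10, and was the gene called higher at the middle step. POLE4 and DNMT1 were the others called higher at the top.

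Of 17 genes of initiation control, 4 were lower and none higher at the middle step, and 4 were lower and 3 higher at the top, the latter close to the shares over all genes. CDC7, the kinase that triggers loaded helicases, had ratios of -0.05, -0.53 and -2.35 with EEDS and 0.02, -0.77 and -1.94 with helveticoside. Its fall came mainly in the last step (-1.49 from the middle to the top step, adjusted p = 0.0281). RECQL4, a helicase-family protein needed for initiation, fell by 1.89 at the middle and 1.97 at the top step. MCM8 and CCNE2 were lower at both steps as well, and TICRR, DONSON and CDK2 were higher at the top. The CCNE2 probe was not well above background on the helveticoside middle-dose array, where its log2 signal was 5.49. GMNN, the inhibitor of CDT1, fell by 0.64 at the middle step and changed by -0.32 at the top (adjusted p = 0.051). Of 14 genes of nucleotide supply, 4 were lower and 3 higher at the middle step and 5 and 5 at the top, with a fall of 1.63 at the top in DCTPP1, which hydrolyses dCTP and its analogs. RRM2B, the p53-inducible subunit of ribonucleotide reductase, rose by 1.27 at the middle and 1.41 at the top step, where RRM2 read -0.96 and -0.52. DUT and UMPS were also called lower at both steps, with CAD at the top, and DCK and DCTD were higher at both, with NME1 and CTPS1 at the top.

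The list of E2F and RB control genes moved in both directions, with 6 of 26 lower and 9 higher at the middle step and 11 lower and 14 higher at the top. Its median change at the top step was 0.63. E2F1, an activator of S-phase genes, had log2 signals of 10.67, 9.92, 9.48 and 9.82 with EEDS and 10.22, 10.09, 9.33 and 9.46 with helveticoside. The middle dose was its lowest array in both series, as in the 16 members named above, and it changed by -1.04 at the middle and -0.81 at the top step (adjusted p = 0.0229 and 0.0233). E2F2, also an activator, fell by 1.10 and 1.08 at these steps (adjusted p = 0.0321 and 0.0195). E2F3, another activator, rose by 0.46 at the middle and 0.98 at the top step (adjusted p = 0.0238 and 0.0022). E2F4 and E2F5, which act mainly as repressors, rose by 1.43 and 1.57 at the top step, as did LIN52 and LIN54, subunits of the DREAM complex that represses cell-cycle genes, by 2.13 and 1.48.

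CDKN1A, the inhibitor of cyclin-dependent kinases known as p21, rose more than any other gene of these lists. Its log2 signals were 7.18, 8.41, 9.83 and 10.42 with EEDS and 7.18, 7.07, 8.87 and 9.70 with helveticoside. The signal at the middle and top doses exceeded both controls in either series, whereas the low dose of helveticoside did not. The change was 2.17 at the middle and 2.88 at the top step (7.36-fold, adjusted p = 0.00435). RBL2, the RB relative p130, fell by 1.77, and CDK6, a G1 cyclin-dependent kinase, rose by 1.67.

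None of 12 checkpoint genes was called at the middle step, where 5 had an unadjusted p under 0.05 beside 36.0% of all genes, and 3 were lower and 4 higher at the top. WEE1, the kinase that restrains cell-cycle kinases, rose by 1.93 and CDC25A, the phosphatase that opposes it, by 1.58. For CDC25A the middle doses read -0.01 and 0.14, so its rise came between the middle and the top step (1.52, adjusted p = 0.0274). HUS1 and CDC25C were the others called higher and ATRIP and CDC25B the others called lower. RAD17, the loader of the checkpoint clamp, fell by 1.46 at the top step, with a probe that was not well above background on the low and top helveticoside arrays.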

How the data were processed

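The authors grew A549 cells, pooled RNA from 3 cultures per condition, and hybridized each pool to a one-colour Agilent 44K array. Per the file headers, the deposited scanner output gives for each spot the median signal, the local background and a background-subtracted processed signal, all as intensity, with the scanner software's outlier and detection calls. A deposited table of the authors' processed intensity values, normalized within each series, was used as an alternative only.

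Control and outlier spots were left out, spots of a probe were averaged, and the processed signals were quantile-normalized over the 8 arrays before log2 was taken. Of 34105 probes used, 24812 were matched by accession to 19056 genes of the RefSeq annotation (GRCh38.p14), and the brightest probe stood for a gene. A gene was kept if its median signal reached 1.4 times the local background on at least 1 array of each series, and a value below that limit was raised to the lowest detected signal of its array. Ratios are to the vehicle control of the same series, and 1 array per dose allows no test of a single dose. limma 3.58.1 (R 4.3.3, trend and robust empirical Bayes) was fitted to the whole table with a slope per series (4 residual degrees of freedom) and with a series block plus dose steps (3 residual degrees of freedom), and p-values were adjusted over all genes by Benjamini-Hochberg with a threshold of 0.05. The p-values of the trend fit judge a slope against departures from a straight line, so a dip at the middle dose counts there as error. Those of the step fit judge a change against the disagreement between the agents at a step. Neither measures the spread between cultures. In a simulated table of 19046 genes with 200 changed, the step fit called 24% of 2-fold and 74% of 4-fold changes placed at the middle step, and 3 of 18846 unchanged genes. In the data 4215 genes were called at that step, so the adjusted threshold was less strict there and these shares do not carry over. The simulated noise was independent between genes and held no effect of place on the slide.

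The members, the pathway lists and the tests were chosen with earlier results of these data known. Beside the members, the 10 list genes with the largest fall and the 10 with the largest rise at the top step were named, together with GMNN and E2F1, except for values that are not reported here. Other list genes were named after their values were seen, to spell out small counts. With 8 arrays the precision is limited by their number, and the files used here do not say which slide or scan an array belonged to.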

Additional observations from a re-analysis of the deposited data

Results flagged for a closer look

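In 2 genes of the pathway lists, every dose of EEDS lay above its vehicle control and every dose of helveticoside below its own. MTBP, a partner of the initiation factor TICRR, had log2 ratios of 0.79, 1.18 and 1.44 with EEDS and -0.71, -1.57 and -0.68 with helveticoside, and its slopes differed by -0.76 per step, helveticoside minus EEDS. Its 2 vehicle controls differed by 1.79 on the log2 scale, more than any of these ratios, so the level it was compared with was not the same in the 2 series. ATAD5, which unloads PCNA, had ratios of 0.81, 0.34 and 0.67 with EEDS and -0.47, -0.87 and -0.20 with helveticoside, with a slope difference of -0.25. Its controls differed by 0.18. Neither slope difference was called by limma (unadjusted p = 0.0332 and 0.31, adjusted p = 1 for each), and the opposite sides themselves were not tested. The part of the control arrays in these differences was not tested.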

How the results depend on the processing

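No paired analysis was possible because each group holds 1 array and so no replicates to pair. The series block of the step fit joins dose steps, not replicates. Of 280 counts and medians over the members recomputed under 8 alternatives, 27 moved. A count was taken as moved if it changed by more than 1.5 times, or to or from 0. A median was taken as moved if it changed by more than the spread between the controls. Of the 63 member calls none changed direction under any setting. Over the members, the EEDS trend gave 7 lower calls with 75th percentile scaling, 8 with bright genes alone, and 11 lower and 0 higher with the authors' processed values. The helveticoside trend gave 5 lower with the median signal as scanned and with normexp correction, and 6 with bright genes alone. Without the low, the middle or the top doses, no trend call was left among the members (0 of 4 lower and 0 of 1 higher for EEDS, 0 of 3 for helveticoside). At the low step 3 members were lower with the signal as scanned and with normexp, and 5 with bright genes alone. At the middle step 1 member, ORC4, was higher under those 3 settings and with 75th percentile scaling. Between middle and top, GINS4 and PRIM1, 2 members, were lower under those 4 settings and GINS4 alone, 1 member, with the authors' values. Leaving out each array in turn, which was chosen after seeing the data, gave 0 to 20 members lower at the middle step, 9 to 21 lower and 1 to 4 higher at the top step, and 0 higher from middle to top. A step that lost an array was then judged on a single array assumed to vary like the rest. The lowest top-step counts came without the EEDS vehicle control. Past 2-fold, members numbered 2 higher at the EEDS top dose, 0 lower at the helveticoside low dose and 5 lower at its top dose with 75th percentile scaling. With the signal as scanned and with normexp they numbered 4 lower at the EEDS low and 6 lower at the helveticoside middle dose, and with the authors' values 0 lower at the helveticoside low dose. Against the control of the other series, the members' medians were -0.18 and -0.25 at the EEDS low and top doses, and 2 and 17 were past 2-fold lower at the helveticoside low and middle doses. At a 1.5-fold threshold 16, 26 and 22 members were lower and 1, 2 and 3 higher over the EEDS doses, and 24 were lower at the helveticoside middle dose. The causes of these differences were not tested.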
